A study of Mus musculus with 2 samples.

Results

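The Igk locus on chromosome 6 encodes the kappa light chain of mouse antibodies. The junctions described here are the entries of the deposited splice junction list that lie wholly within chr6:67450000-70700000 on build mm9. They numbered 1877 of 446811 junctions, and held 260070 of 43037344 junction reads. The list comes from polyA RNA longer than 200 nt, read as stranded pairs of 76 nt. The tissue was labelled large intestine, from adult C57BL/6J mice, an inbred strain, at 8 weeks of age, and each of the 2 libraries pooled male and female littermates under the same donor record. The samples form 1 group with no treatment, so the design holds no comparison between conditions. Each junction carries a first and a second read count field whose sum is its read count. No label says which library a field stands for, so values are given by field and no test was made between them.

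A kappa gene is assembled in developing B cells by joining 1 of many V segments to 1 of a few J segments, a step that deletes or inverts the DNA between them. The V gene has a short leader exon, an intron and a V exon, and the joined J segment is spliced to the single constant exon, Igkc. Once assembled, the V and J segments are adjacent in the genome of that cell, so a read across the joint aligns to the unrearranged reference with a gap, as a read across an intron does. Plasma cells of the gut wall secrete large amounts of antibody, mostly of the IgA class. In bulk tissue, fewer cells of a type and less RNA per cell cannot be told apart.

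Junctions were named by structure: strand, gap length and distance to the acceptor of Igkc had to equal those of an annotated intron exactly. The annotation was GENCODE M21, on build mm10, and no position was converted between builds. On mm10 the constant exon of Igkc (ENSMUSG00000076609.2) spans chr6:70726435-70726966, and Igkj1 to Igkj5 lie upstream of it between 70722562 and 70723927, all on the plus strand. The sequences below come from the GENCODE M21 transcripts of that build. The joining segments are shown because the most-read junctions start at their 3′ ends, and capitals mark bases that differ from Igkj1 in an alignment of their 3′ ends.
Igkj1: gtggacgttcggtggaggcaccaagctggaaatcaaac
Igkj2: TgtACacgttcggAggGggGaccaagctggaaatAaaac
Igkj3: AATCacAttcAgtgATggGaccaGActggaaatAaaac
Igkj4: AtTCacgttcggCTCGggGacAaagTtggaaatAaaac
Igkj5: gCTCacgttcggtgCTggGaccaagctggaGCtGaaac
The first 60 nt of the constant exon, to which all of them are spliced, are given next.
Igkc: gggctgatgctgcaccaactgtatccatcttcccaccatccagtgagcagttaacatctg

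The window took 0.6043% of all junction reads (95% exact binomial interval, Clopper-Pearson, 0.602 to 0.6066%) and 8.353% of those on chromosome 6. By field the share was 0.7799% (first field, 158362 reads) and 0.4474% (second field, 101708 reads), a ratio of 1.74. Such intervals cover counting error of reads only and not the spread between libraries. The reads carry no molecular identifiers by which copies of 1 molecule could be told. Most reads fell on few junctions: 98.8% of them were on the 271 members with 10 or more reads, and 946 members (50.4%) rested on 1 read. On the rest of chromosome 6, 41.2% of 19916 junctions rested on 1 read. Reads in both fields were found for 433 members (23.1%), against 41.4% on the rest of the chromosome. The plus strand held 965 junctions with 148626 reads and the minus strand 912 with 111444 reads. The outermost members at the lower and the upper edge of the window had 1 read each, the nearest junctions wholly outside it had 1 and 177 reads, and 22 junctions with 33 reads in all crossed an edge.

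Long gaps were more frequent in the locus than on the rest of its chromosome. The median gap was 84882 nt in the window and 1941.5 nt outside it. Gaps over 100000 nt made up 46.4% of the members and took 6.53% of their reads, against 11.8% of junctions and 0.236% of reads on the rest of chromosome 6. Gaps of at most 600 nt, the size of leader introns, took 47.8% of the reads. Gaps over 600 and up to 5000 nt were 4.58% of the members yet took 39.8% of the reads, with 103420 reads on the plus strand and 172 on the minus strand. These are the lengths of the introns between J segments and Igkc.

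**Figure D1:**
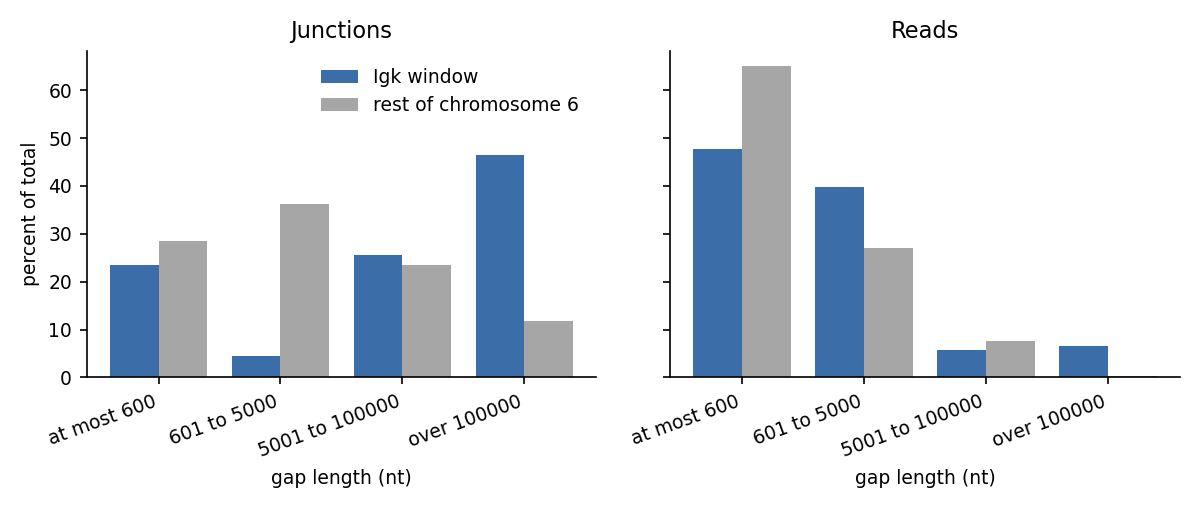
Percent of junctions (left) and of reads (right) by gap length in nt, for the Igk window (blue) and the rest of chromosome 6 (grey). Gaps over 100000 nt are 46.4% of the window's junctions and 6.53% of its reads, and gaps over 600 and up to 5000 nt 4.58% of junctions and 39.8% of reads.

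By structure, 117484 reads (45.2%) crossed 99 leader introns of V genes, and 103153 reads (39.7%) crossed 5 junctions from a J segment to Igkc. A further 209 junctions with 24027 reads (9.24%) joined the leader donor of 1 V gene to the V exon acceptor of another. Gaps from the end of a V exon to the start of a J segment, as a joined gene gives, numbered 106 with 3318 reads (1.28%). The remainder used only 1 annotated leader splice site (129 junctions, 3560 reads), lay inside 1 exon (135, 828 reads), reached the Igkc acceptor from another donor (15, 74 reads) or had no such structure (1179, 7626 reads). The last kind was 62.8% of all members and 2.93% of the reads, and 721 of its junctions rested on 1 read.

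Splicing to Igkc was read from all 5 J segments, with at least 10 reads from 4 of them. Igkj1, the segment farthest from Igkc, was spliced over a 3835 nt intron (chr6:70672594-70676428, mm9) by 39045 reads, 24249 of them from the first field and 14796 from the second. Igkj2, over 3480 nt, had 29826 reads, 15521 and 14305. Igkj5, over 2511 nt, had 24519 reads, 15532 and 8987. Igkj4, over 2849 nt, had 9754 reads, 5408 and 4346. The first field was the higher for each of these segments, by more at Igkj1 and Igkj5 than at Igkj2 and Igkj4. Igkj3, which is regarded as non-functional in mice, had 9 reads over its 3174 nt intron, 8 and 1.

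As shares of the J to C reads, Igkj1 gave 37.85% (37.56 to 38.15%), Igkj2 28.91%, Igkj5 23.77%, Igkj4 9.456% and Igkj3 0.008725% (0.00399 to 0.01656%). The share of Igkj1 was 39.94% in the first field (39.55 to 40.33%) and 34.87% in the second (34.41 to 35.32%). Igkj2 moved the other way, from 25.56% (25.22 to 25.91%) to 33.71% (33.26 to 34.16%). The order of Igkj1, Igkj2 and Igkj5 therefore had Igkj2 and Igkj5 close together in the first field and well apart in the second. These fields are 1 against 1, so the spread between animals is not known from them.

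**Figure D2:**
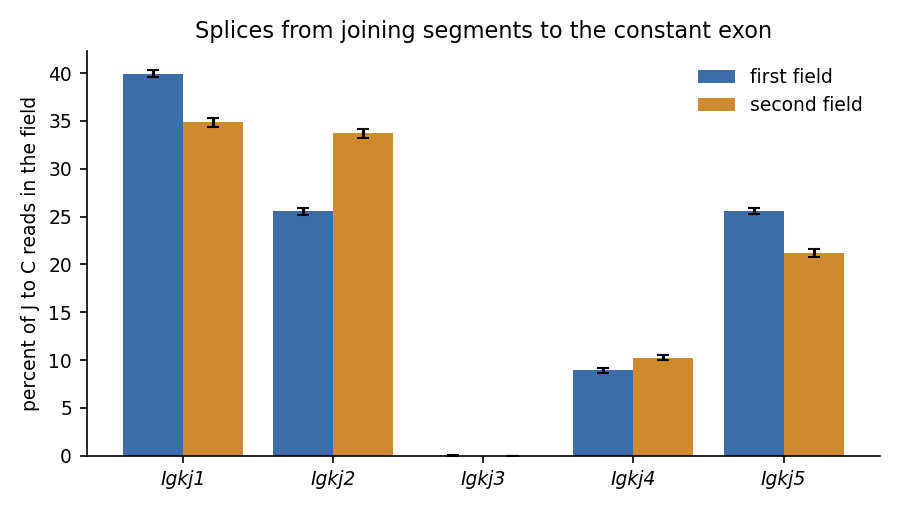
Percent of the J to C reads of each field that start at each joining segment, first field blue and second field orange, with 95% exact binomial intervals for counting error. Igkj1 leads in both fields, Igkj2 takes 25.56% and 33.71%, and Igkj3 is near 0.

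The acceptor of Igkc was the site shared by the most junctions. It was used by 20 junctions with 103227 reads, of which the 15 junctions with other donors had 74. The most-read of these had 38 reads, 23 and 15, over 7057 nt, and its donor lay 3222 nt upstream of the Igkj1 donor. Transcripts that start upstream of the J segments of an unjoined locus are known as germline transcripts. The next had 11 reads, all in the first field, over 354644 nt. Across the window, 299 of 1242 donor sites (24.1%) were used by 2 or more junctions and took 96.0% of the reads, and 348 of 1125 acceptor sites (30.9%) took 89.3%.

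Leader introns were matched for 99 of 157 V genes with an annotated intron. They comprised 93 of 102 functional genes and 6 of 55 pseudogenes, and the pseudogenes had 252 reads, 0.214% of the total. The introns were 102 to 405 nt long with a median of 178 nt. Of the 99, 80 had at least 10 reads and 25 at least 1000. The minus strand, whose V genes must be inverted to join a J segment, held 62 of them and 75.0% of the reads. It has 88 of the 157 V genes with an annotated intron, and Igkv6-23 on that strand alone gave 22.09% of all leader reads. The nearest matched intron lay 22.57 kb from the Igkc acceptor and the farthest 3171 kb, so V genes from end to end of the locus were read.

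A few V genes supplied most of the leader reads. The 5 most-read genes held 50.7% and the 10 most-read 64.3%. Igkv6-23, on the minus strand, led with 25954 reads over a 178 nt intron (chr6:70210701-70210878, mm9), split into 16652 and 9302 between the first and second field. It was 22.7% of the leader reads of the first field and 21.09% of the second. Igkv19-93 followed with 12415 reads, 11599 and 816, which made it 15.81% of the first field and 1.85% of the second. Igkv10-94 had 9138 reads, 3909 and 5229, and Igkv10-96 8324 reads, 3435 and 4889. These 4 genes are all on the minus strand. On the plus strand Igkv9-120 had 3755 reads (2056 and 1699), Igkv3-1 3542 (3497 and 45) and Igkv6-25 3512 (1595 and 1917). Igkv3-1 was thus read almost wholly in the first field, while Igkv9-120 and Igkv6-25 were read at like levels in both.

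By family, the 9 matched genes of Igkv6 held 33.4% of the leader reads, and 33.4% in each field. The 3 genes of Igkv10 held 14.9%, with 22.9% in the second field and a lower share in the first. The 26 genes of Igkv4, the family with the most matched members, held 9.83%, and the 10 genes of Igkv3 8.21%. In each field 5 genes made up 50% of the leader reads, and 4 genes were among the 10 most-read of both fields. Over the 99 introns the reads of the fields had a Spearman rho of 0.826, given as a description since all points share the same libraries. The gene tables are a further readout of these libraries: over 89 genes, the leader reads and the summed expected counts per gene had a Spearman rho of 0.764. Single genes differed widely between the readouts. Igkv10-94, with 9138 leader reads, had expected counts of 556.24 and 586.94 (replicates 1 and 2). Igkv4-59, with 296 leader reads, had 7069.79 and 11586.34. The ranking by leader reads is thus not that of the gene tables.

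**Figure D3:**
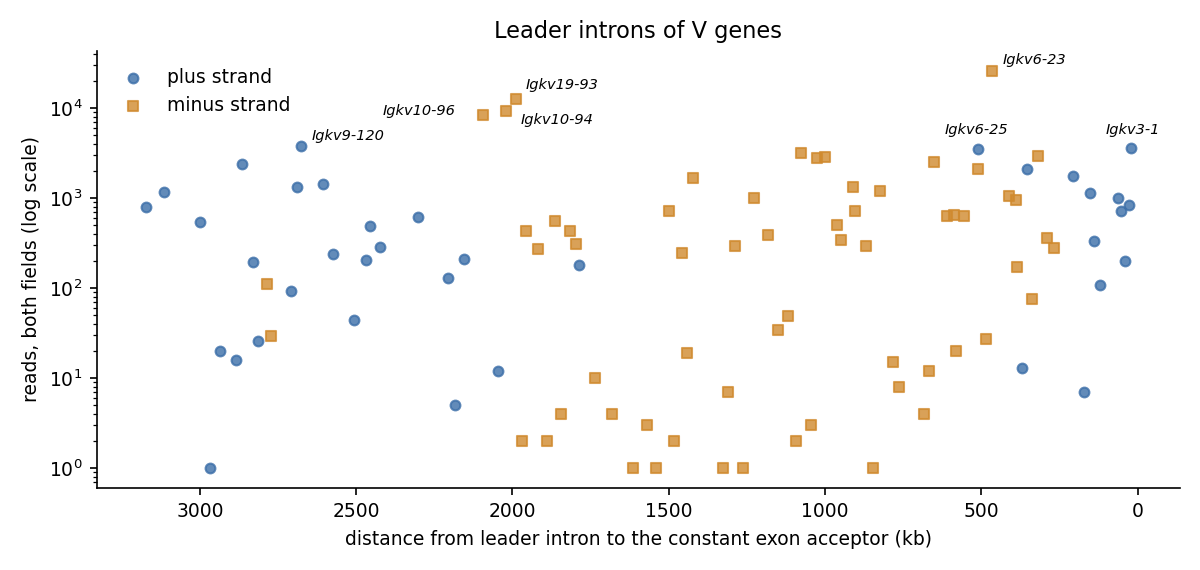
Reads of both fields over each of the 99 matched leader introns (log scale) against the distance in kb from the intron to the Igkc acceptor, with plus strand genes as blue circles and minus strand genes as orange squares. The 7 most-read genes are labelled, and Igkv6-23 is the highest with 25954 reads.

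Junctions from the leader of 1 V gene to the V exon of another lay mostly within families: 176 of 209, with 23887 of 24027 reads. Members of a V family have closely similar sequence, so a read over the intron of 1 gene can match the leader of its relative. The ends of the leader exons (first 40 nt) and the starts of the V exons (next 60 nt) are shown for the 3 pairs with the most reads, with capitals for bases that differ within a pair.
Igkv10-94: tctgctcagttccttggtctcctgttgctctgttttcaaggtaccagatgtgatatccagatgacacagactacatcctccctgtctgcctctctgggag
Igkv10-96: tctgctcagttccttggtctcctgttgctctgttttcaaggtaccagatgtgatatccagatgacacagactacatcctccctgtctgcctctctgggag
Igkv6-15: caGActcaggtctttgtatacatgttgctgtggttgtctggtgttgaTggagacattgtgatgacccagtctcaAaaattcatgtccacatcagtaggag
Igkv6-23: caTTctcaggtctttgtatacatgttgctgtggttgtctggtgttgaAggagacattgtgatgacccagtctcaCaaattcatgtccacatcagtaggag
Igkv17-127: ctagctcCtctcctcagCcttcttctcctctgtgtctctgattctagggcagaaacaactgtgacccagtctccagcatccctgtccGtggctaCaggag
Igkv17-121: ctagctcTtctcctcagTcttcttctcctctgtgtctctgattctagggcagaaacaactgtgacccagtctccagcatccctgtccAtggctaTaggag
The first pair has no difference in this stretch, and its whole annotated leader exons of 49 nt are identical.

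The junction from the leader of Igkv10-94 to Igkv10-96 spanned 72669 nt and had 8324 reads, 3436 and 4888 by field. The own leader intron of Igkv10-96 had 8324 reads too, 3435 and 4889. Agreement within 1 read in each field between such a junction and a leader intron was found for 25 of the 209, which held 10619 reads. Only 6 of the 25 had at least 10 reads, out of 80 junctions of this kind with that many. At a few reads, agreement within 1 read is easily met. The junction from Igkv3-10 to Igkv3-5, with 1008 reads, equalled the 1008 reads of the Igkv3-5 intron, and that from Igkv6-20 to Igkv6-29 had 641 reads, as had the Igkv6-29 intron. Whether the same reads are counted at both places cannot be read from the list, which gives totals only.

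Other pairs did not have equal counts, also where leaders were identical: the junction from Igkv3-3 to Igkv3-1, whose leader exons share all 49 nt, had 542 reads against 3542 for the Igkv3-1 intron. The junction from Igkv6-15 to Igkv6-23 had 4499 reads, 2716 and 1783, against 25954 for the Igkv6-23 intron and 2915 for that of Igkv6-15. The 2 leader exons were identical over their last 36 nt. The junction from Igkv17-127 to Igkv17-121 had 1790 reads, more than the 1326 of the Igkv17-121 intron, with 22 nt of leader identical up to the splice site. The junction from Igkv1-122 to Igkv1-117 had 1082 reads. Over the 207 junctions with sequences the median identical stretch of leader was 18 nt, and in 17 the whole of the shorter leader exon was identical. The longest member, at 881765 nt, was also of this kind.

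Joints of V and J segments gave 3318 reads (2282 and 1036 by field) from 14 V genes and to 4 J segments, with none to Igkj3. All lay on the plus strand, since a V gene on the minus strand cannot form a gap with a J segment on 1 strand of the reference. The reference sequence across the 6 most-read joints is shown, with the last 36 nt kept of the V exon in lower case and the J segment in capitals. It is the sequence at the deposited gap ends, not a read, and bases that were mutated or added in the cells do not appear in it.
Igkv3-1-Igkj1 joint: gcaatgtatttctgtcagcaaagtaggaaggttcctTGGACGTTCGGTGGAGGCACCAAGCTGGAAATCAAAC
Igkv6-17-Igkj2 joint: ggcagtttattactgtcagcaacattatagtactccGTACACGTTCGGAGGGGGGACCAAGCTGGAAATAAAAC
Igkv3-12-Igkj2 joint: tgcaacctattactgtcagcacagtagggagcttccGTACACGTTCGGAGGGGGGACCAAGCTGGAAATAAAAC
Igkv3-5-Igkj5 joint: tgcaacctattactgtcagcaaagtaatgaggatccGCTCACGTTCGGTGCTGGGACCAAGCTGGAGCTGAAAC
Igkv3-12-Igkj1 joint: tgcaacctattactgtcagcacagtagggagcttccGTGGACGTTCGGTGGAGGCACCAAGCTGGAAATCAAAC
Igkv3-4-Igkj5 joint: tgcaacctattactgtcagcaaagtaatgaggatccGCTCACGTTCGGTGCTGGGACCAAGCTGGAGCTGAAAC
The Igkv3-5 and Igkv3-4 joints to Igkj5 have the same letters over this stretch, so reads that do not reach further into the V exon could not be told apart.

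The joint of Igkv3-1 to Igkj1 (chr6:70654170-70672556, mm9) had 925 reads, 923 of the first field and 2 of the second, and was 27.9% of all joint reads. That of Igkv6-17 to Igkj2 had 551 reads, 454 and 97. That of Igkv3-12 to Igkj2 had 323 reads, 6 and 317, so the most-read joints were each carried mostly by 1 field. Further joints were those of Igkv3-5 to Igkj5 with 177 reads (174 and 3), Igkv3-12 to Igkj1 with 112 (75 and 37) and Igkv3-4 to Igkj5 with 85 (83 and 2). Of the 106 joints, 43 had reads in both fields.

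Gap ends fell close to the annotated segment ends. The V exon had lost 0 to 3 nt in 97.3% of the joint reads and the J segment 0 to 3 nt in 97.8%, by the deposited positions. Where V and J share bases at the joint, the aligner's placement decides which segment counts as shortened. Nearly all joints kept the reading frame from V to J: 91 joints with 3281 reads were in frame, and 10 joints with 18 reads were not. The frame of 5 joints with 19 reads is not given, since their V gene, Igkv3-8, is annotated as a pseudogene. In-frame joints were 99.5% of the reads with a frame (99.1 to 99.7%) and 90.1% of the joints. All 36 joints with at least 10 reads were in frame. Without the most-read joint the share of reads in frame was 99.2%.

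Igkj1 took 47.3% of the joint reads, Igkj2 33.9%, Igkj5 13.1% and Igkj4 5.64%. These shares rested on the single joint of Igkv3-1 to Igkj1: without it Igkj1 took 27.0% and Igkj2 47.1%. The V genes with joints lay close to the J segments. Of 27 plus strand V genes with at least 100 leader reads, all 11 within 1000 kb of the Igkc acceptor had a joint, and none of the 16 beyond it did. The 1000 kb limit was set after these distances were seen: among these 27 genes the farthest with a joint, Igkv6-25, lay 510.8 kb away and the nearest of the 16 lay 1787 kb away. The longest joint, from Igkv8-26, a gene with no matched leader intron, to Igkj2, spanned 529122 nt and had 1 read. The 11 near genes had 15225 leader reads and the 16 far genes 13951. In the whole junction list 43 gaps were longer than 1000 kb, with 63 reads in all, and the longest gap with at least 10 reads was 851542 nt. No source used here gives the longest gap that the aligner allowed, and its part in this pattern was not tested.

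**Figure D4:**
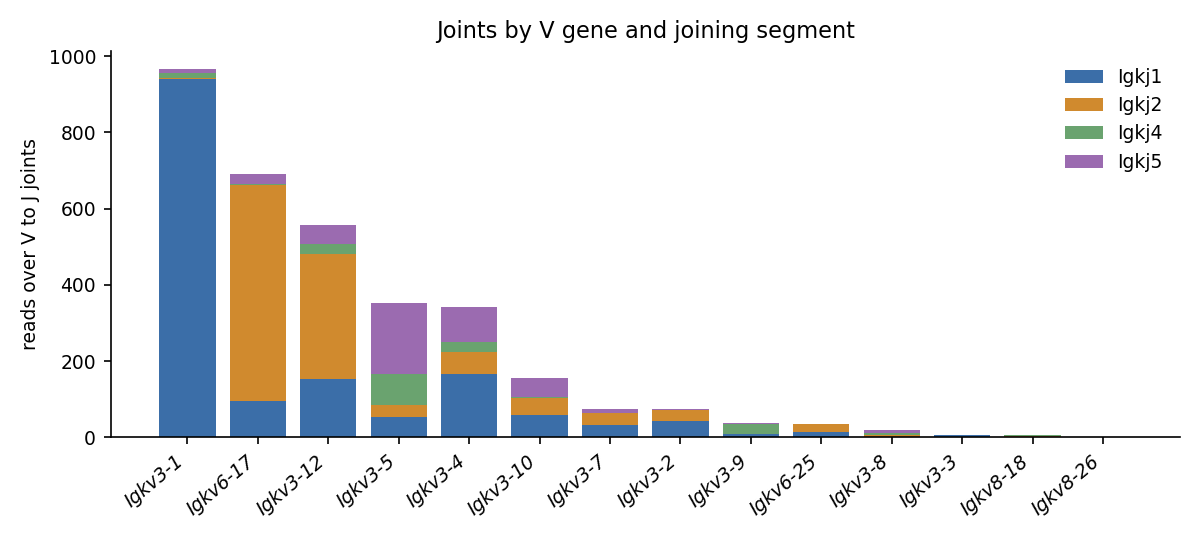
Reads over V to J joints for each of the 14 V genes, stacked by the joining segment reached. Igkv3-1 is highest with 966 reads, nearly all to Igkj1, and no bar holds Igkj3.

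The read count fields differed more at this locus than over the whole list. Reads were scaled to the field totals and given a pseudocount of 1, and a junction with at least 10 reads was called when the fields were at least 2-fold apart. Of 271 such members 165 (60.9%) were called, against 23.9% of 130634 junctions in the list. Among these 165 members the first field was the higher at 109 (66.1%) and the second at 56. Among the 31211 junctions called in the whole list, the first field was the higher at 23917 (18.3% of those tested). The second was the higher at 7294 (5.58% of those tested). As a share of called junctions, the lean to the first field was thus weaker at the locus than over the list. Because the first field held more of the locus, scaling to the totals within the window turned the split of the members. Of 167 called, 76 then had the first field higher and 91 the second. Under that scaling 61.6% of members were called, against 32.4% of the whole list. With the fields at 1 against 1, these counts have no replicate check.

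The kinds of junction differed in how often they were called. All 4 J to C junctions with at least 10 reads lay within 2-fold, with log2 ratios of the second to the first field from -0.95 to -0.28. Of the 80 leader introns with that many reads 51 (63.8%) were called, of the 80 junctions between V genes 45 (56.2%), and of the 36 joints 30 (83.3%). The median log2 ratio was -0.68 for the J to C junctions, -0.58 for leader introns, -0.35 for junctions between V genes and -1.09 for joints. With 4 J to C junctions, whether the kinds differ beyond chance was not tested.

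The 5 largest ratios in each direction were taken among members with at least 50 reads. In favour of the first field stood the joint of Igkv3-1 to Igkj1 (log2 ratio -8.40), the leader intron of Igkv1-133 with 530 and 4 reads (-6.88), and the junction from the leader of Igkv4-58 to the V exon of Igkv4-63 with 86 and 0 reads (-6.53). The leader intron of Igkv3-1 (-6.41) and a gap inside the V exon of Igkv19-93 with 75 and 0 reads (-6.33) followed. The joint and the leader intron of Igkv3-1 thus leaned the same way. This did not hold for every V gene: the joints of Igkv3-4 together had 181 and 160 reads, its leader intron 212 and 500. In favour of the second field stood the joint of Igkv3-12 to Igkj2 (5.35), the leader intron of Igkv3-9 with 7 and 327 reads (5.21), and a joint of Igkv3-4 to Igkj1 with 3 and 78 reads (4.16). The leader introns of Igkv4-91, with 44 and 381 reads (2.92), and of Igkv4-86, with 63 and 365 reads (2.35), followed. The leader intron of Igkv3-12 had 434 and 1309 reads, so it too was higher in the second field. The joints of Igkv3-12 to Igkj1, with 109 and 43 reads, were higher in the first.

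**Figure D5:**
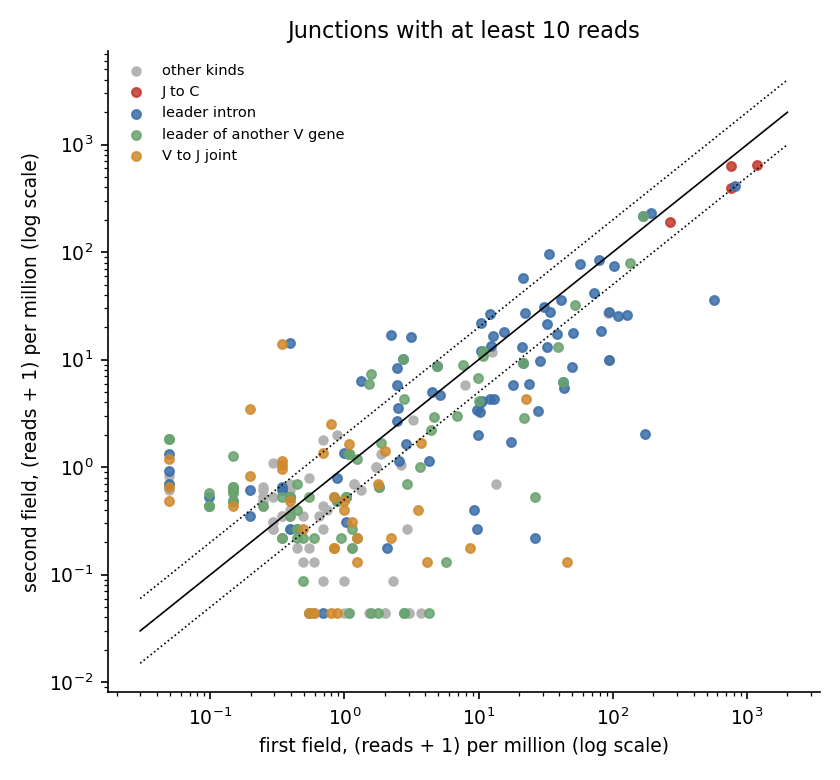
First against second read count field for the 271 members with at least 10 reads, as reads plus 1 scaled to the field total (both axes log scale), coloured by kind. The solid line marks equal values and the dotted lines 2-fold. The 4 J to C junctions lie within the dotted lines, and 165 of 271 junctions lie on or outside them.

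Some short gaps lay inside single exons. In V exons there were 46 such junctions with 508 reads, of which 475 (93.5%) removed a multiple of 3 nt, although only 27 of the 46 junctions did. Most of those reads came from 3 junctions: a 93 nt gap in Igkv19-93 with 286 reads, 271 and 15, a second 93 nt gap 3 nt away with 75 reads, all in the first field, and a 99 nt gap in Igkv1-117 with 60 reads, all in the first field. In the Igkc exon 89 junctions with 320 reads were found, and 35.9% of those reads, and 33 of the 89 junctions, removed a multiple of 3 nt. The most-read of them, and the shortest member with at least 10 reads, was a 35 nt gap with 76 reads, 53 and 23.

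Some well-read junctions had no matching annotated intron. A 111 nt gap near Igkv15-103 had 2486 reads, 1872 and 614. A 197 nt gap on the minus strand (chr6:70322353-70322549, mm9) had 2113 reads, 1886 and 227, with no annotated V gene at its place. A 155382 nt junction from the same donor to the V exon of Igkv8-24 also had 2113 reads, 1886 and 227, and the leader intron of Igkv8-24 had 2114, 1887 and 227. These 3 counts agree within 1 read in each field. At Igkv12-89 a 118 nt gap from the annotated leader donor to another acceptor had 524 reads, 256 and 268. The longest member with at least 10 reads, a plus strand gap of 630392 nt with 16 reads (5 and 11), had none of the structures named above.

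The contig list, which marks transcribed stretches on mm9, held 334 contigs in the window, 155 on the plus strand and 179 on the minus strand, over 74402 nt. Their median level was 1.0205, in the authors' depth-normalized signal, against 0.185 over all 647881 contigs. The 213 contigs that overlapped an antibody exon on the same strand had a median of 10.8, and the other 121 a median of 0.18. The highest contig, of level 1550 and rank 24 in the whole list, spanned the J segments, the J to C introns and Igkc. Of 63 leader introns with at least 100 reads, 58 had contigs at both flanks, as did 23 of the 36 with fewer.

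In the gene tables Igkc stood at 35618.68 and 21084.84 TPM (replicates 1 and 2), while the lambda constant gene Iglc2 was at 117.88 and 65.38. Values were found for 10 of the 12 antibody constant genes listed. The lambda constant genes Iglc1 and Iglc3 had none, so kappa and lambda as wholes cannot be compared here. All 5 Igkj genes, which are shorter than the reads, were listed at 0 TPM. The IgA heavy chain gene Igha was at 17969.19 and 8967.41 TPM and Jchain, whose product links IgA units, at 1479.1 and 778.04 TPM. All 9 plasma cell genes were at 1 TPM or more in both libraries and summed to 1814 and 1107 TPM, most of it Jchain, while Xbp1, a transcription factor of secretory cells, was higher in replicate 2 at 123.78 and 171.62 TPM. The 5 B cell markers summed to 89.08 and 138.9 TPM. Igkc, Igha and Jchain were thus higher in replicate 1 and the B cell markers higher in replicate 2. Rag1 and Rag2, which encode the recombinase that joins V to J, were at 0 and 0 TPM and at 0.03 and 0 TPM, and Dntt, which adds bases at joints, at 0.11 and 0.07 TPM. Of the 10 recombination genes 5 were below 1 TPM in both libraries.

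The libraries held 50189619 and 58233142 expected counts. Of 6 colonocyte markers, which summed to 1004 and 620.3 TPM, 4 were above 1 TPM in both libraries, led by Krt20 at 699.65 and 335.37 TPM, while Car1 and Aqp8 were below 1 TPM in both. The 4 small intestine enterocyte markers summed to 2004 and 5459 TPM: Fabp6 was at 477.37 and 5278.56 TPM, whereas Sis (281.05 and 79.72), Lct (151.71 and 9.94) and Apoa4 (1094.32 and 91.11) were lower in replicate 2. The 2 Paneth cell markers summed to 4775 and 7222 TPM. Under the label large intestine, all 4 markers of small intestine enterocytes were thus present, but only 4 of the 6 colonocyte markers. The part of this in the junction counts was not tested.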

How the data were processed

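PolyA RNA-seq of 2 libraries from 1 group was used. The read counts per junction were deposited as whole numbers on build mm9, and for all 446811 junctions they equalled the sum of the first and second field in the name. The contig level is a signal and the reproducibility value a score, both as deposited by the authors. The expected counts, TPM and FPKM per gene were deposited on mm10 with GENCODE M4, per the accompanying notes of the authors. The aligner and the junction caller: not given in the sources used here. With 1 group and fields of unknown library, no p-value was computed.

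Members were taken by position. Names came from exact agreement of strand, gap length and distance to the Igkc acceptor with GENCODE M21 introns, and joints from ends within 20 nt of a V end and a J start. The window, lists and classes were chosen with earlier results of these data known. The naming rule took the 10 with the most reads, the 5 most-read per strand and length class with at least 10 reads, those with at least 10 reads at the Igkc acceptor, the 5 longest and shortest, and the 5 largest ratios in each direction with at least 50 reads. The text names some of these. The joints, pairs of V genes, gaps inside exons and unmatched junctions named beyond these were chosen after their values were seen. Log2 ratios used reads scaled to field totals, a pseudocount of 1 and at least 10 reads. That step was tested on simulated data in which the fields varied by binomial sampling alone. It therefore does not show how often spread between libraries leads to a call. Tables were handled with pandas 2.3.3 and numpy 2.4.6 under Python 3.11.15, intervals came from scipy 1.17.1 and plots from matplotlib 3.10.9. Transcript tables, and the undefined flags of the junction names, were not used.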

Additional observations from a re-analysis of the deposited data

How the results depend on the processing

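No paired analysis was possible because the design has 1 group. The number of junctions in the window, 1877, fell to 931 with at least 2 reads, 271 with at least 10 reads, 433 with reads in both fields and 1002 in the second field alone, as these rules keep fewer junctions. Counted by field, their reads were 158362 and 101708. The share of all junction reads was 0.78% and 0.447% in the fields, and 0.549% without junctions from the leader of 1 V gene to another, an alternative chosen after seeing the data. The shortest class took 47.1% of reads with an upper length of 400 nt and 48.1% both with at least 10 reads and with reads in both fields. Gaps over 100000 nt were 36.5% of junctions with at least 10 reads and 34.6% of those with reads in both fields. The share of Igkj1 was 39.9% and 34.9% by field. The share of members apart between the fields was 37.3% at a fold of 4, against 5.25% of the list. It lay between 56.5% and 62.7% under 7 other settings, where the share of the list lay between 15.2% and 32.4%. The Igkc ratio of replicate 1 to replicate 2 was 1.69 in TPM, 1.5 in FPKM and 1.51 in shares of expected counts, and Igkc lay between 21085 and 35619 TPM when either library was left out. Contigs at or above the median level numbered 167. Matching within 2 nt named 101 leader introns in place of 99. Under settings added after seeing the data, joints numbered 103 and 106 with ends within 10 and 30 nt, with 99.5% of reads in frame in both cases. Depth limits the 946 members of 1 read, whose structure has no second read behind it.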
